A study of Mus musculus with 12 samples.

Results

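The transcription factor gene Nfe2l2, which encodes NRF2, and 9 of its redox target genes (Nqo1, Gclc, Gclm, Txnrd1, Srxn1, Hmox1, Cbr1, Cbr3 and Slc7a11) were followed in mouse liver. All 10 were found by gene symbol among 18784 genes with a symbol of their own, each through 1 probe set. NRF2 is held in the cytoplasm by KEAP1 and degraded; electrophiles and oxidants modify KEAP1, and NRF2 then enters the nucleus, pairs with a small MAF protein and binds antioxidant response elements. Its targets supply glutathione, reduce thioredoxin and sulfinylated peroxiredoxins, reduce quinones and carbonyls, and break down heme. In liver this programme is best known for protection against reactive drug metabolites. NRF2 activity is set largely through protein stability, which RNA levels do not show.

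RNA came from the livers of 12 mice, with 3 KK males, 3 KK females, 3 C57BL/6J males and 3 C57BL/6J females, and each liver was hybridised to 1 Affymetrix whole-transcript array. KK mice, labelled KK/HIJ in 1 field and KK/J in another, are a model of obesity with insulin resistance, and C57BL/6J is a common laboratory strain. The labels name no engineered allele and no agent in any group. All mice ate chow, were 8 weeks old, lived alone for 3 days, went 4 hours without food and were perfused after death, and the large liver lobe was used. The values are log2 expression values from RMA, on which a difference of 1 is a doubling, and differences are given as KK minus C57BL/6J or as male minus female.

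Array medians lay between 5.9 and 6.03 and interquartile ranges between 2.64 and 2.97. Arrays of 1 group correlated at 0.992 to 0.996 over all probe sets. The mean of 8 hepatocyte markers lay between 13.18 and 13.32 on all arrays. Xist was at least 10.29 on female arrays and at most 4.70 on male arrays. The 3 measured Y-linked genes gave 3.79 to 4.66 on female arrays, which shows the level of an absent transcript, and at least 5.87 on male arrays. Standard errors (SE), 95% confidence intervals and p-values are those of limma, fitted to all 12 arrays and adjusted by the Benjamini-Hochberg method over all 21212 probe sets. A gene was called at an adjusted p under 0.05, and a gene that was not called is given by its values alone. SDs are over 3 mice a group. Nothing in the labels names litters. With 1 array per mouse, the p-values rest on a spread that holds mouse and array differences together.

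The 3 members that were called in some comparison, Srxn1, Nqo1 and Cbr1, and Gclm, which came close to a call, are shown by the 250 bases before their annotated start in RefSeq (GRCm38.p6, a C57BL/6J sequence; the KK sequence was not used here). Capitals mark matches on either strand to 2 forms of the antioxidant response element, TGACNNNGC and TGANTCAGC, which a single site can satisfy together.
Srxn1, chr2:152105274-152105523, plus strand: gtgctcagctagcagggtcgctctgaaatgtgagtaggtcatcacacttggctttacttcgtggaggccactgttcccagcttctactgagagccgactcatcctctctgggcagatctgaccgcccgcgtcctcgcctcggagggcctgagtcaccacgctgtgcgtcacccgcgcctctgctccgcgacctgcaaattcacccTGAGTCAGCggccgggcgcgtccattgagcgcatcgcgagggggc
Gclm, chr3:122245307-122245556, plus strand: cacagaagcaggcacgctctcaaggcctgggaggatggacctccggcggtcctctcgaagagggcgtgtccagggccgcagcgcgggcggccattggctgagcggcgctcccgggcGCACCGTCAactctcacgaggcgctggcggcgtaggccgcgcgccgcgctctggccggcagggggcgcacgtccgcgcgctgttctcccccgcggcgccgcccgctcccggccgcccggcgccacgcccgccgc
Nqo1, chr8:107403206-107403455, minus strand: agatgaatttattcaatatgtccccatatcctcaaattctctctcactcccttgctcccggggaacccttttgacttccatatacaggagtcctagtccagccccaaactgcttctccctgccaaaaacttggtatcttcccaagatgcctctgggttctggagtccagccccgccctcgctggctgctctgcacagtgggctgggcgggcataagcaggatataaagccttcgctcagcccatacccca
Cbr1, chr16:93607587-93607836, plus strand: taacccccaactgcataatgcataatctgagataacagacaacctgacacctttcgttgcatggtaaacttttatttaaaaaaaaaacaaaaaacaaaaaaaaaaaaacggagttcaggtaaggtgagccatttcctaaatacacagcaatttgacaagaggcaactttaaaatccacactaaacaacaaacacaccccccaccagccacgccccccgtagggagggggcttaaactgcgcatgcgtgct
RefSeq windows (250 bases before to 50 after the start) were matched for 8 members, with 10 windows in all. The form TGANTCAGC stood in the Srxn1 window alone, beginning 45 bases before the start. It stood in 1.19% of all 32851 windows, and 1.37% of 27025 genes had it in at least 1 window. The form TGACNNNGC stood in windows of 4 members, Nfe2l2, Gclm, Txnrd1 and Srxn1 (in Srxn1 beginning 29 bases after the start, beyond the stretch shown). It stood in 12.4% of all windows, and 14% of genes had it in at least 1 window. No match lay in the Nqo1 and Cbr1 stretches, which says only that these letters are not in the windows searched.

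The 10 genes did not move together. Over both sexes Srxn1 rose and Cbr1 fell in KK livers, and 8 members were not called. Of all probe sets 11.7% were called in this comparison, 5.42% higher and 6.31% lower. In 0 of 10 members did the 6 KK arrays lie clear of the 6 C57BL/6J arrays, against 5.98% of probe sets. The median difference of the members was 0.05 and that of all probe sets 0.01. Both strain differences were found in males (1 higher and 1 lower of 10, against 5.15% of probe sets called, 2.08% higher and 3.06% lower). In females limma called 0 of 10 members (against 6.5% of probe sets, 3.18% higher and 3.31% lower), with 2 at an unadjusted p under 0.05, and 1 member, Gclm, was called with array weights. Between the sexes, Nqo1 was called lower in males of both strains, and Cbr1 was called lower and Srxn1 higher in males of KK. Cbr1 also averaged lower in C57BL/6J males than in C57BL/6J females (9.54 against 9.97), a difference that was not called. In the interaction of strain and sex 0 of 10 members were called, against 0.141% of probe sets.

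**Figure D1:**
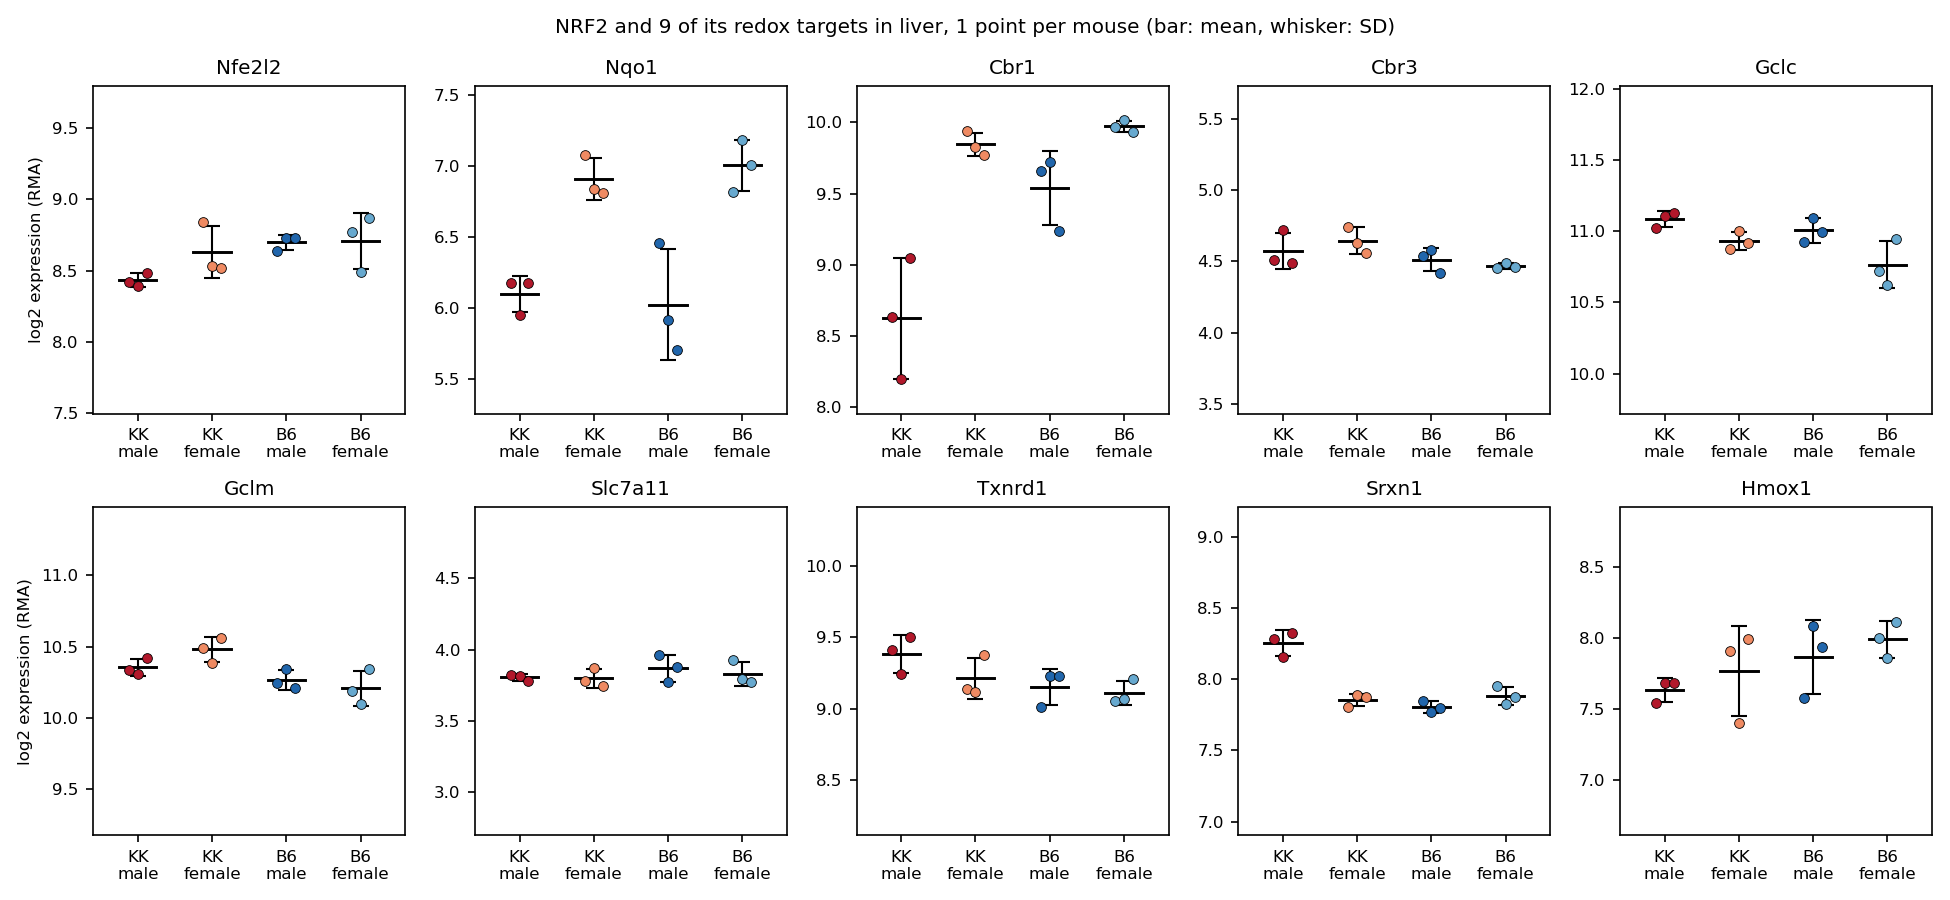
Log2 expression of the 10 genes (y axes, all of equal log2 range) in KK males, KK females, C57BL/6J (B6) males and B6 females, with 1 point per mouse, a bar at the mean and whiskers of 1 SD (n = 3). Cbr1 is lowest and Srxn1 highest in KK males, while Nqo1 is lower in males of both strains.

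Nfe2l2 itself measured 8.42, 8.39 and 8.48 in KK males, against 8.64, 8.73 and 8.73 in C57BL/6J males. These groups did not overlap, as was true of 21.7% of all probe sets between these males. In females it measured 8.84, 8.53 and 8.52 in KK, against 8.77, 8.49 and 8.87 in C57BL/6J, and the groups overlapped. The strain difference was -0.26 in males (SE 0.105, adjusted p = 0.215), -0.08 in females (adjusted p = 0.827) and -0.17 over both sexes (SE 0.07, adjusted p = 0.187). It was called over both sexes by 1 alternative, array weights, at -0.21 (adjusted p = 0.0393). On the deposited values it was called in none of the 6 comparisons.

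Srxn1 encodes sulfiredoxin, which restores over-oxidised peroxiredoxins. In KK males it measured 8.29, 8.16 and 8.33, against 7.85, 7.77 and 7.80 in C57BL/6J males. In KK females it measured 7.80, 7.89 and 7.87, against 7.95, 7.82 and 7.88 in C57BL/6J females. The KK males stood above all other arrays, and the other 3 groups, with means of 7.81 to 7.88, overlapped each other. Of all probe sets, 21.7% had male groups of the strains that did not overlap, and 18.6% had KK sexes that did not. The strain difference was 0.45 in males (SE 0.07, 1.37-fold, adjusted p = 0.00167), -0.03 in females (SE 0.07, adjusted p = 0.917) and 0.21 over both sexes (SE 0.05, adjusted p = 0.011). Leaving out any 1 array kept the male and the combined call, with an adjusted p of at most 0.0108 and 0.0316. Males exceeded females by 0.40 in KK (SE 0.07, adjusted p = 0.00879) and differed from them by -0.08 in C57BL/6J (adjusted p = 0.943). The adjusted p of the sex difference in KK was 0.0507 without KK female 1 and 0.0661 with the KK arrays alone in the fit. The interaction, which sets the male strain difference against the female one, was 0.48 (SE 0.09, unadjusted p = 0.000246), but its adjusted p was 0.1, so a difference between the sexes was not called; with array weights the adjusted p was 0.0173. In the interaction limma called 0 of the 10 members and 0.141% of probe sets (0.066% higher and 0.0754% lower), with 2 members, Srxn1 and Cbr1, at an unadjusted p under 0.05.

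Txnrd1, which encodes the cytosolic reductase of thioredoxin, measured 9.41, 9.24 and 9.50 in KK males, against 9.01, 9.23 and 9.23 in C57BL/6J males. In females the values were 9.14, 9.12 and 9.38 in KK, against 9.05, 9.07 and 9.21 in C57BL/6J. The male groups did not overlap, as was true of 21.7% of all probe sets between these males, and the female groups overlapped. The strain difference was 0.23 in males (SE 0.10, adjusted p = 0.249), 0.10 in females (adjusted p = 0.727) and 0.17 over both sexes (SE 0.07, adjusted p = 0.163). After quantile normalization of the deposited values it was called over both sexes (0.21, adjusted p = 0.0219) and in males (0.29, adjusted p = 0.0419), and cyclic loess normalization gave an adjusted p of 0.0212 and 0.0396. Over both sexes it was also called with array weights (0.22, adjusted p = 0.0273) and with the interquartile range of the arrays as a covariate (0.18, adjusted p = 0.0441).

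Nqo1 encodes the quinone reductase that is the standard readout of NRF2 activity. It measured 6.17, 5.95 and 6.17 in KK males, against 7.08, 6.84 and 6.81 in KK females. In C57BL/6J males it measured 6.46, 5.91 and 5.71, against 6.82, 7.18 and 7.01 in C57BL/6J females. All males lay below all females, and within each sex the strains overlapped. Male and female groups did not overlap for 18.6% of all probe sets in KK and for 13.1% in C57BL/6J. Males were lower by -0.81 in KK (SE 0.17, 0.57-fold, adjusted p = 0.0277) and by -0.98 in C57BL/6J (SE 0.17, 0.51-fold, adjusted p = 0.0116). In KK the adjusted p was 0.135 without female 1, 0.0511 without female 2, 0.0762 without male 1 and 0.118 without male 2. In C57BL/6J it was 0.0607 without female 2, 0.0601 without male 2, 0.0504 without male 3 and 0.0669 with the C57BL/6J arrays alone in the fit. With each of these arrays left out the difference was below 0, between -0.72 and -0.84 in KK and between -0.82 and -0.92 in C57BL/6J. The strain difference of Nqo1 was -0.01 over both sexes (95% interval -0.26 to 0.24, adjusted p = 0.979).

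Cbr1 and Cbr3 encode cytosolic carbonyl reductases and stand near each other on chromosome 16, with the pseudogene Gm5678 between them in RefSeq. Whether a probe set of one also takes up RNA of the other is uncertain. Cbr1 measured 8.63, 8.20 and 9.05 in KK males, against 9.66, 9.72 and 9.24 in C57BL/6J males. In KK females it measured 9.94, 9.83 and 9.77, against 9.97, 10.01 and 9.93 in C57BL/6J females. From low to high the groups ran KK males, C57BL/6J males, KK females and C57BL/6J females. The male groups overlapped neither each other nor any female group, while the female groups overlapped. Of all probe sets, 21.7% did not overlap between strains in males, 18.6% between KK sexes and 13.1% between C57BL/6J sexes. Cbr1 was lower in KK by -0.91 in males (SE 0.18, 0.53-fold, adjusted p = 0.00975), by -0.13 in females (SE 0.18, adjusted p = 0.842) and by -0.52 over both sexes (SE 0.13, adjusted p = 0.0168). With the 6 male arrays alone in the fit the adjusted p in males was 0.0556, and without any 1 array it was at most 0.0461. The sex difference was -1.22 in KK (SE 0.18, 0.43-fold, adjusted p = 0.0039) and -0.43 in C57BL/6J (SE 0.18, adjusted p = 0.519). For Cbr1 the interaction was -0.79 (SE 0.25, adjusted p = 0.576). Cbr3 lay between 4.42 and 4.74 on the 12 arrays, close to the level of an absent transcript, and its strain difference of 0.12 over both sexes was not called (adjusted p = 0.235).

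**Figure D2:**
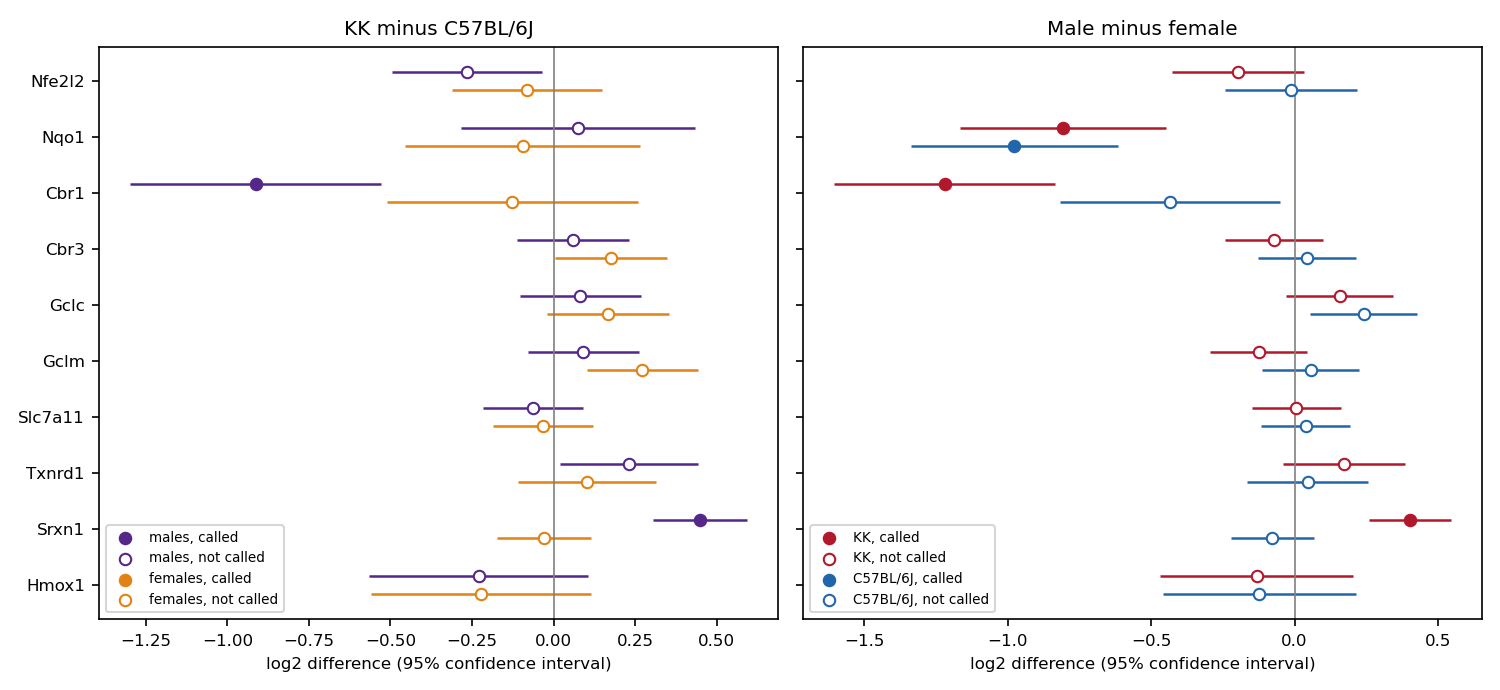
Log2 differences of the 10 genes with their 95% confidence intervals (x axes), KK minus C57BL/6J in males and in females (left panel) and male minus female in KK and in C57BL/6J (right panel), with filled points for calls at an adjusted p under 0.05. On the left, Cbr1 (-0.91) and Srxn1 (0.45) in males are filled; on the right, Nqo1 in both strains and Cbr1 and Srxn1 in KK.

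Markers of Kupffer cells and macrophages were, like Cbr1, lowest in KK males. Their highest array mean was in KK females, however, and the highest Cbr1 value in C57BL/6J females. Over the 9 measured markers of 10 listed, the mean log2 value per array lay between 7.51 and 7.90 in KK males, 8.39 and 9.15 in KK females, 7.99 and 8.64 in C57BL/6J males, and 8.53 and 8.71 in C57BL/6J females. In KK males against C57BL/6J males all 9 differences were below 0, with a median of -0.63, and 2 were called, against 3.06% of probe sets called lower: Clec4f, a Kupffer cell lectin (-0.75, adjusted p = 0.0144), and Csf1r, the receptor of macrophage growth factor CSF1 (-0.75, adjusted p = 0.0393). In KK males against KK females 8 of 9 were called lower, with a median of -1.03, against 1.47% of probe sets called lower. The lowest single value of the 9 markers was 5.62, for Marco. It lay above the 3.79 to 4.66 of the Y-linked genes on female arrays but below the array medians of 5.9 to 6.03. Detection calls were not made. Markers of sinusoidal endothelium and of stellate cells differed less between the males of the strains, with medians of -0.13 and -0.14. Of these, 1 of 6 and 0 of 6 were called lower in KK males, against 3.06% of probe sets. In each list 1 difference was above 0. The mean of 6 sinusoidal endothelium markers lay between 8.300 and 8.473 in KK males, and between 8.475 and 8.618 in C57BL/6J males. That of 6 stellate cell markers lay between 6.966 and 7.293 in KK males, and between 7.135 and 7.465 in C57BL/6J males. The part of any of these cell types in the Cbr1 result, and in the sex differences of Nqo1 and Srxn1 in KK, was not tested. In whole liver, fewer cells of a type and less RNA per cell cannot be told apart.

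**Figure D3:**
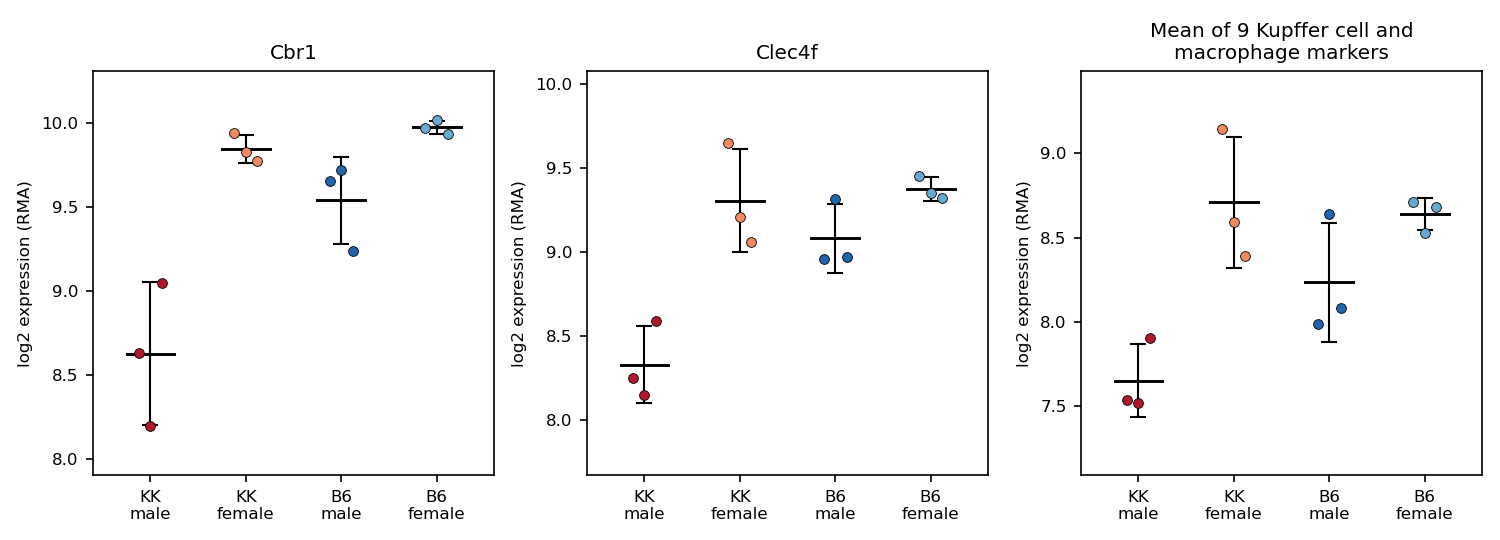
Log2 expression of Cbr1, of Clec4f and of the mean of 9 Kupffer cell and macrophage markers (y axes) in KK males, KK females, C57BL/6J (B6) males and B6 females, with 1 point per mouse, a bar at the mean and whiskers of 1 SD (n = 3). In all 3 panels the KK males are the lowest group, with means of 8.63 for Cbr1 and 8.33 for Clec4f. Clec4f had the pattern nearest to Cbr1 among 18067 named genes, so its panel is no separate evidence of likeness.

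Likeness of pattern was measured as the root mean square difference of the centred log2 values over the 12 arrays, among 18067 named genes. The 3 genes nearest to Cbr1 were Clec4f (0.20), the Fc receptor chain gene Fcer1g (0.23) and the sulfotransferase gene Sult1a1 (0.24), where Cbr1 itself had an SD of 0.59 over the arrays. The nearest to Nqo1 were the glutathione transferase gene Gstt3 (0.18), the flavin monooxygenase gene Fmo1 (0.20) and Rtn4 (0.21), against an SD of 0.51. Nearest to Srxn1 were Mlec, which encodes the ER lectin malectin (0.08), Tmem109 (0.08) and Xk (0.08), against an SD of 0.19.

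Glutathione synthesis starts with glutamate-cysteine ligase, whose catalytic and modifier subunits are encoded by Gclc and Gclm. Gclm measured 10.34, 10.31 and 10.42 in KK males, against 10.24, 10.34 and 10.21 in C57BL/6J males. In females it measured 10.49, 10.39 and 10.56 in KK, against 10.19, 10.10 and 10.34 in C57BL/6J, and only the female groups did not overlap, as was true of 20.6% of all probe sets between these females. The strain difference was 0.09 in males (adjusted p = 0.622), 0.27 in females (SE 0.08, 1.21-fold, adjusted p = 0.0615) and 0.18 over both sexes (SE 0.06, adjusted p = 0.0524), all short of a call. It was called over both sexes after quantile (0.26, adjusted p = 0.00225) and loess normalization (0.23, adjusted p = 0.00501), and in females too (adjusted p = 0.00737 and 0.0122). Over both sexes it was called as well with the filter on dim probe sets (adjusted p = 0.0444), with 1 probe set per gene (0.0479), with an intensity trend and robust prior (0.0461), with array weights (0.013) and with the interquartile range of the arrays as a covariate (0.012). The last 2 also called it in females (adjusted p = 0.00973 and 0.0236). Without KK female 2 or C57BL/6J female 3 the adjusted p over both sexes was 0.0431 or 0.0256, and in females it was 0.0361 without C57BL/6J female 3. Gclc ranged from 11.03 to 11.13 in KK males, from 10.87 to 11.001 in KK females, from 10.93 to 11.10 in C57BL/6J males and from 10.62 to 10.95 in C57BL/6J females. Its strain difference was 0.12 over both sexes (SE 0.06, adjusted p = 0.256), and males differed from females by 0.16 in KK (adjusted p = 0.396) and by 0.24 in C57BL/6J (adjusted p = 0.383). Slc7a11, the light chain of the cystine importer, lay between 3.74 and 3.96 on all 12 arrays, at the level of an absent transcript, and differed by -0.05 between strains (adjusted p = 0.685).

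Hmox1, the inducible heme oxygenase gene, measured 7.54, 7.68 and 7.68 in KK males, against 7.58, 8.08 and 7.94 in C57BL/6J males. In females it measured 7.90, 7.40 and 7.99 in KK, against 8.00, 7.86 and 8.11 in C57BL/6J. Both pairs of groups overlapped, and KK female 2 had the lowest value of all. The strain difference was -0.23 over both sexes (SE 0.11, 95% interval -0.46 to 0.01, adjusted p = 0.252), and no sex difference was called (-0.13 in KK and -0.12 in C57BL/6J).

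Between the sexes of KK, 1 member rose and 2 fell in males, against 2.17% of all probe sets called, 0.698% higher and 1.47% lower. Between those of C57BL/6J, 0 rose and 1 fell, against 1.03% called, 0.358% higher and 0.674% lower. In neither case were Nfe2l2, Gclc, Gclm, Txnrd1, Hmox1, Cbr3 and Slc7a11 called.

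Other genes of the pathway were taken from 7 lists, whose counts over both sexes are set against the 11.7% of all probe sets called (5.42% higher and 6.31% lower) and the median of 0.01 of all probe sets. Of 15 regulators of NRF2, 1 rose in KK over both sexes and 0 fell, against 11.7% of all probe sets called, with 3 at an unadjusted p under 0.05 by limma (median -0.01). The one that rose was Gsk3b, a kinase that promotes NRF2 degradation (0.31, adjusted p = 0.0493), and its call was lost without any 1 array other than KK male 2, C57BL/6J male 3 and KK female 2 (adjusted p up to 0.113). Gsk3b averaged 8.05 in KK females against 7.575 in C57BL/6J females, and 7.84 against 7.69 in males, and was called within neither sex. Keap1, named after its value was seen, differed by -0.01 (SE 0.05, adjusted p = 0.936). In KK males against KK females 1 of the 15 rose, against 0.698% of probe sets higher: Syvn1, an ubiquitin ligase of the endoplasmic reticulum (0.54, adjusted p = 0.0203), which lost its call without female 1, male 1 or male 3 of KK (adjusted p up to 0.102) and with the KK arrays alone in the fit (adjusted p = 0.0565).

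Of 11 measured genes of glutathione synthesis and use, 2 rose and 1 fell in KK over both sexes (median 0.06), against 5.42% of probe sets higher and 6.31% lower. The glutaredoxin gene Glrx rose in males (0.48, adjusted p = 0.00439), in females (0.69, adjusted p = 0.000269) and over both sexes (0.59, SE 0.06, adjusted p = 3.19e-05). It averaged 8.66 (SD 0.14) in KK males against 8.17 (SD 0.10) in C57BL/6J males. The glutathione reductase gene Gsr rose by 0.22 (adjusted p = 0.0289), a call lost without any 1 of 6 arrays (KK female 3, KK males 1 and 3, C57BL/6J females 1 and 2, and C57BL/6J male 1; adjusted p up to 0.0726). Gss, which encodes glutathione synthetase, the enzyme after glutamate-cysteine ligase, fell by 0.31 (adjusted p = 0.0119). Between the sexes, Slc3a2, the heavy chain that Slc7a11 shares with other amino acid transporters, was lower in males of KK (-0.60, adjusted p = 0.00498).

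Of 12 measured thioredoxin and peroxiredoxin genes, 0 rose and 3 fell in KK over both sexes (median -0.05), with 7 at an unadjusted p under 0.05; of all probe sets 5.42% were called higher and 6.31% lower. Txnip, which encodes the inhibitor of thioredoxin, averaged 8.73 (SD 0.22) in KK males against 9.77 (SD 0.11) in C57BL/6J males, and in females 9.17 (SD 0.21) in KK against 9.999 (SD 0.31) in C57BL/6J. It fell by 0.93 over both sexes (SE 0.11, adjusted p = 0.000162). The mitochondrial peroxiredoxin gene Prdx3 fell by 0.53 (SE 0.07, adjusted p = 0.000218). Osgin1, an oxidative stress-induced growth inhibitor gene, fell by 1.06 (SE 0.27, adjusted p = 0.0246), with an adjusted p up to 0.0612 without KK female 1, KK female 2, KK male 2, C57BL/6J female 3, C57BL/6J male 2 or C57BL/6J male 3. Sex gave 0 calls among these genes in either strain by limma (against 2.17% of probe sets in KK and 1.03% in C57BL/6J), with 4 in KK and 0 in C57BL/6J at an unadjusted p under 0.05.

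Among 6 measured genes of NADPH supply, 2 rose in KK and 0 fell (median 0.11), where 5.42% of probe sets were called higher and 6.31% lower. Both act in the non-oxidative pentose phosphate pathway: Tkt, transketolase (0.22, SE 0.04, adjusted p = 0.00568), and Taldo1, transaldolase (0.22, adjusted p = 0.0282), whose call was lost without any 1 array other than KK female 1, KK male 3 and C57BL/6J female 2 (adjusted p up to 0.0753). The rest of the list, Pgd, Pgls, Me1 and Idh1, was not called over both sexes, and G6pdx was not measured.

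In heme and iron handling 1 of 8 measured genes rose and 2 fell in KK (median 0.05), beside 5.42% of probe sets higher and 6.31% lower. Alas1, the rate-limiting enzyme of heme synthesis in liver, averaged 12.12 (SD 0.30) in KK males against 10.48 (SD 0.22) in C57BL/6J males, and in females 11.61 (SD 0.14) in KK against 11.002 (SD 0.19) in C57BL/6J. It rose by 1.64 in males (SE 0.16, 3.12-fold, adjusted p = 5.69e-05) and 1.13 over both sexes (adjusted p = 2.93e-05). Over both sexes Hmox2, the constitutive heme oxygenase gene, fell by 0.26 (adjusted p = 0.00745) and Blvrb, a biliverdin reductase gene, by 0.28 (adjusted p = 0.00971). Within 1 sex, limma called Hmox2 lower in males alone (adjusted p = 0.00556) and Blvrb in females alone (adjusted p = 0.0139). Hmox2 averaged 8.82 in KK males against 9.25 in C57BL/6J males, and 9.09 against 9.17 in females. Blvrb averaged 8.53 in KK females against 8.94 in C57BL/6J females, and 8.91 against 9.06 in males. In the interaction 0 of the 8 genes were called, against 0.141% of probe sets. Of 5 erythroid markers 2 were measured and both rose in KK over both sexes, against 5.42% of probe sets higher, Alas2 by 1.19 and Slc4a1 by 0.34; their part in the heme genes was not tested.

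Of 14 measured drug metabolism targets 3 rose and 2 fell in KK (median -0.02), against 5.42% of all probe sets called higher and 6.31% lower. The aldehyde oxidase gene Aox1 rose by 0.55 (adjusted p = 0.00116), the epoxide hydrolase gene Ephx1 by 0.23 (adjusted p = 0.0328) and the aldehyde dehydrogenase gene Aldh1a1 by 0.20 (adjusted p = 0.0134), while the carboxylesterase gene Ces1g fell by 0.40 (adjusted p = 0.000678). For Ephx1 the call was lost without any 1 array other than KK female 2, C57BL/6J female 3 and C57BL/6J male 2 (adjusted p up to 0.0791). Abcc3, an exporter of glucuronide conjugates, named after its value was seen, fell by 0.22 (adjusted p = 0.040), and its call ended without any 1 array other than KK male 3, C57BL/6J female 2 and C57BL/6J male 2 (adjusted p up to 0.0945). Within 1 sex, limma called Ces1g and Abcc3 lower in KK females (adjusted p = 0.00113 and 0.0202) and neither in males. Of 9 measured glutathione transferases with reported NRF2 control, 5 rose and 1 fell in KK (median 0.16), against 5.42% of probe sets higher and 6.31% lower, led by the mu-class genes Gstm3 (0.77, adjusted p = 0.000421) and Gstm2 (0.63, adjusted p = 0.000319). Gsta4 rose by 0.37 and Gstm4 by 0.32. The fifth, Gstm1, named after its value was seen, rose by 0.16 (adjusted p = 0.0282), a call that ended without any 1 of 7 arrays (KK females 1 and 3, KK males 1 and 3, C57BL/6J females 2 and 3, and C57BL/6J male 3; adjusted p up to 0.0642). Probe sets of these close paralogs are uncertain as to the gene.

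Between the sexes, the pi-class transferase gene Gstp1 was higher in males by 1.49 in KK (adjusted p = 2.74e-05) and by 2.01 in C57BL/6J (adjusted p = 1.03e-06), and it fell by 0.40 in KK over both sexes (adjusted p = 0.00625). Within 1 sex, limma called that strain difference in males (adjusted p = 0.00481) and not in females. Aox1 was higher in males by 0.59 in KK (adjusted p = 0.0292) and by 0.63 in C57BL/6J (adjusted p = 0.0282). Ugdh, which makes the sugar donor for glucuronidation, was higher in males by 0.56 in KK (adjusted p = 0.0177). Also in KK males, Gstm4 rose by 0.39 (adjusted p = 0.0369) and Blvrb by 0.38 (adjusted p = 0.0407), while Slc40a1, the iron exporter ferroportin, which macrophages also express, fell by 0.60 (adjusted p = 0.0363). Of these calls, those of Gstp1 were kept without any 1 array. The Ugdh call was lost without KK female 1 or 2, and the Aox1 call in KK without either of these or KK male 1 or 3. The Aox1 call in C57BL/6J was lost without female 1, female 2, male 2 or male 3 of that strain or KK male 1. For Gstm4 any 1 array other than KK female 3, C57BL/6J female 2 and C57BL/6J males 2 and 3 ended the call, and for Blvrb any other than C57BL/6J females 1 and 3. For Slc40a1 any other than KK female 3, KK male 3, C57BL/6J female 2 and C57BL/6J males 1 and 3 did so, with an adjusted p up to 0.172. With the KK arrays alone in the fit none of Ugdh, Aox1, Gstm4, Blvrb and Slc40a1 was called between KK sexes (adjusted p from 0.0648 for Blvrb to 0.149 for Slc40a1). With the interquartile range as a covariate the adjusted p was 0.0719 for Gstm4 and 0.0805 for Slc40a1.

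**Figure D4:**
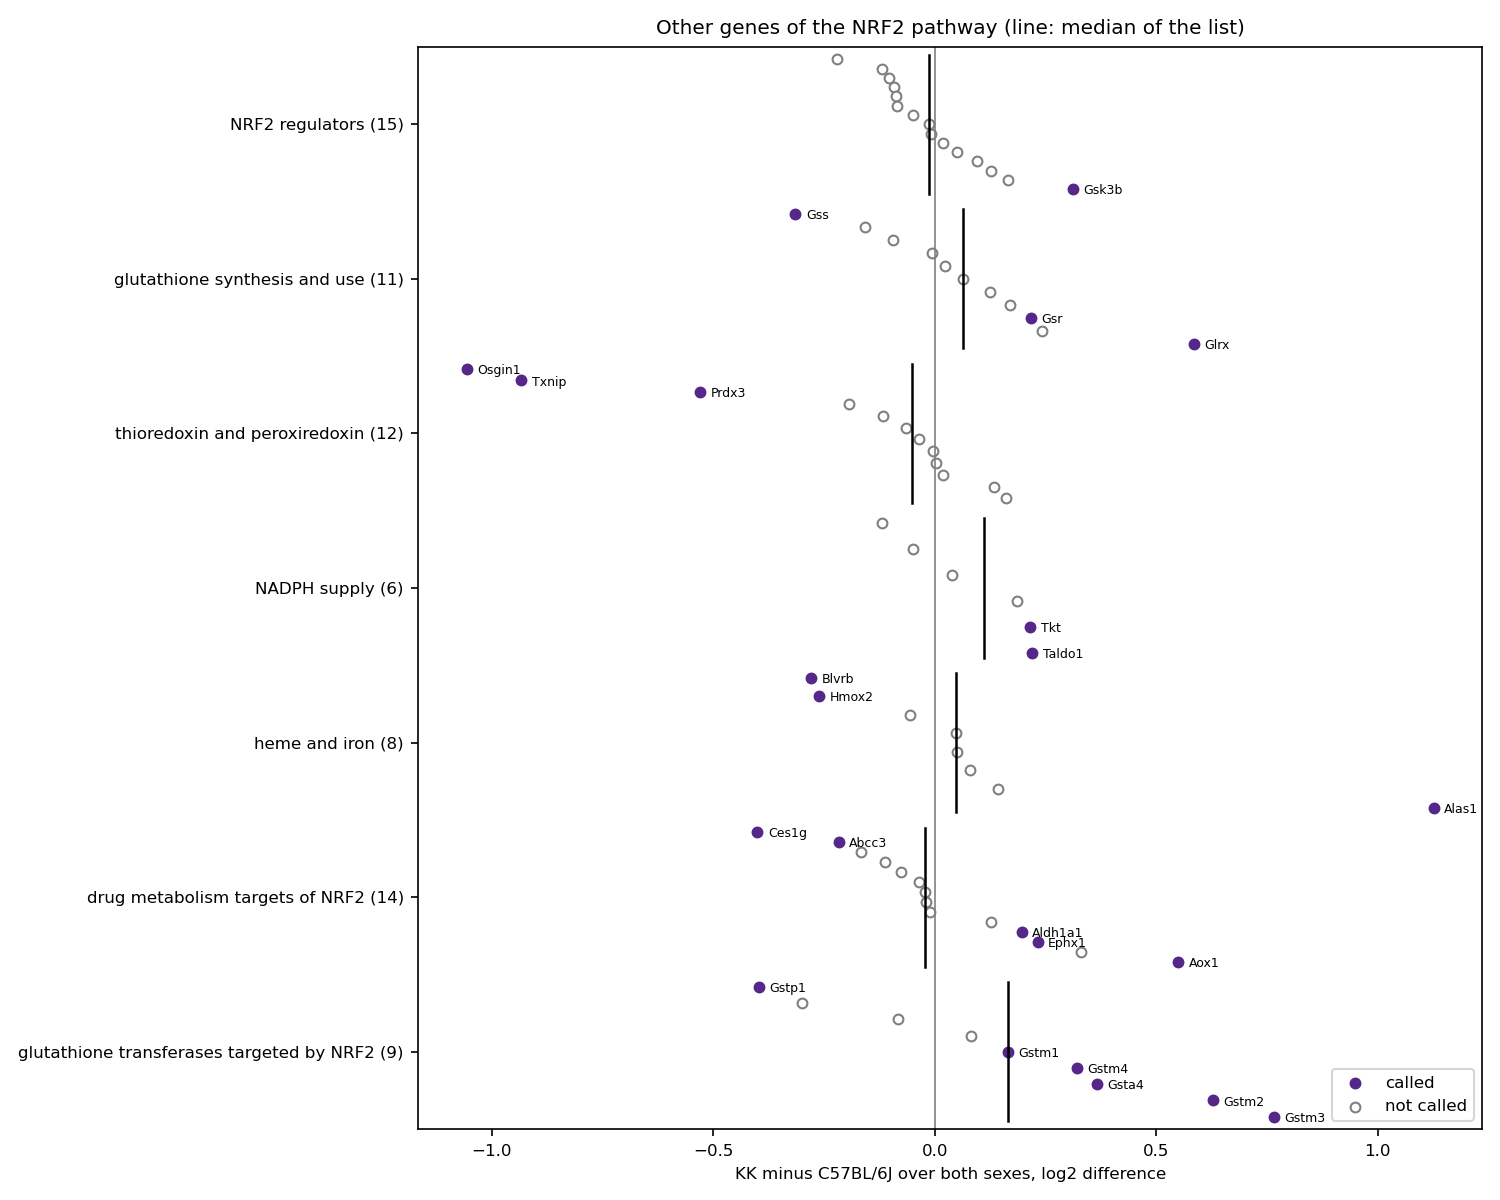
KK minus C57BL/6J over both sexes (x axis, log2 difference) for each measured gene of 7 lists (rows, number of genes in brackets), with filled, named points for calls at an adjusted p under 0.05 and a line at the median of the list. Alas1 (1.13) stands farthest to the right, Osgin1 (-1.06) and Txnip (-0.93) farthest to the left, and the medians lie between -0.05 and 0.16.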

How the data were processed

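The authors deposited RMA expression on the log2 scale, with 1 value for each probe set of an array. RMA and the affy package are named in the submitters' processing notes, and versions and genome build are not given in the sources used here. Each array was made from 300 ng of total RNA of 1 liver, per the labels' protocols. Because the interquartile ranges of the deposited arrays differed, quantile and cyclic loess normalization were among the alternatives, with a filter on dim probe sets, array weights and each array left out. Of 21212 probe sets, 18786 had 1 gene symbol in the platform table, 6 several and 2420 none. No scanner files were used, so detection calls and probe-level checks were not made. Whether KK sequence differs under any probe was not checked, a limit on every difference between the strains.

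Groups came from the sample titles. One mean per group was fitted to all probe sets and 12 arrays in R 4.3.3 with limma 3.58.1 (lmFit, contrasts.fit, eBayes, 11.99 total degrees of freedom), in 6 two-sided comparisons. The fit was run on simulated data for KK minus C57BL/6J over both sexes alone, with noise independent between arrays. The other comparisons were not tested in this way. Named were all members, up to 4 called genes of each list and comparison with the smallest adjusted p, and the 3 nearest patterns of each called member; list genes called between strains within 1 sex are only partly given. The precision is limited by 3 arrays a group. Of 158 listed genes and markers 142 were measured, and the rest were not analysed here. The members, lists and motifs were chosen with earlier results of these data known. Same-numbered arrays deviated together in part (r over 0.1 in 10 of 18 pairs), and 8 of 12 arrays correlated best with their own number. The r ran from -0.356 to 0.477 in same-numbered pairs and from -0.506 to 0.482 in differently numbered pairs. The replicate numbers were not used in the main fit, and a fit with them as a block is given below. Whether same-numbered arrays shared a run was not tested.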

Additional observations from a re-analysis of the deposited data

Results flagged for a closer look

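For 2 genes, pairs of groups that did not overlap differed in opposite directions, and none of the 4 differences was called. Groups did not overlap for 18.6% of probe sets between KK sexes, 13.1% between C57BL/6J sexes, 21.7% between strains in males and 20.6% in females. Alas1 was higher in all KK males than in all KK females (0.51, SE 0.16, adjusted p = 0.134) and lower in all C57BL/6J males than in all C57BL/6J females (-0.52, SE 0.16, adjusted p = 0.222). The difference between these sex effects was 1.03 (SE 0.22, unadjusted p = 0.000534, adjusted p = 0.162 by limma), which was not called. Txn1, the cytosolic thioredoxin gene, named after its values were seen, was higher in all KK males than in all C57BL/6J males (0.11, SE 0.06, adjusted p = 0.391) and lower in all KK females than in all C57BL/6J females (-0.11, SE 0.06, adjusted p = 0.358). The difference between these strain effects was 0.22 (SE 0.08, adjusted p = 0.707) and was not called.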

How the results depend on the processing

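Over both sexes 2 members were called as deposited, 4 after quantile or loess normalization or with the interquartile range as a covariate, 5 with array weights and 0 at a fold of at least 1.5. In females 0 were called as deposited and 1, Gclm, after either normalization, with weights, with that covariate or with the replicate block (adjusted p = 0.0481, and 0.0411 over both sexes). In males 1 of 2 remained called with the compared groups alone (Srxn1) and 1 at the fold limit (Cbr1); with the compared groups alone the Srxn1 call between KK sexes ended too (2 of 3 members called) and so did the Nqo1 call in C57BL/6J (0 members). Array weights called 1 member, Srxn1, in the interaction. The replicate number as a block, which does not pair the mice, called 3, 1, 2, 3, 1 and 0 members over both sexes, in females, in males, between sexes in KK and in C57BL/6J and in the interaction, and 3113, 1765, 1477, 624, 259 and 41 probe sets, against 2488, 1378, 1092, 460, 219 and 30 without it; 8 of 12 arrays correlated best with their own number.

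Probe sets called with weights were 2423 in males, 2058 and 363 between sexes in KK and C57BL/6J, and 77 in the interaction. The covariate gave 2329 in females, 1673 in males and 392 between sexes in C57BL/6J, and between KK sexes it called 250 higher and 258 lower, against 148 and 312 without it; the KK groups alone gave 190 between sexes, and the fold limit gave 501 over both sexes, 558 in females, 467 in males and 259 between sexes in KK. With 1 array left out, probe sets called ranged from 905 to 1412 in females, 662 to 1163 in males, 160 to 512 and 142 to 225 between sexes in KK and C57BL/6J, and 19 to 35 in the interaction; members called ranged from 0 to 1 in females, 1 to 3 between sexes in KK and 0 to 1 in C57BL/6J.

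Signs turned only in differences that were not called. With 1 array left out, Nqo1 lay between -0.090 and 0.098 over both sexes and -0.085 and 0.29 in males, Srxn1 between -0.060 and 0.0031 and Slc7a11 between -0.069 and 0.017 in females, and Cbr3 between -0.012 and 0.10 in males. Between sexes Slc7a11 lay between -0.020 and 0.044 in KK and -0.0074 and 0.088 in C57BL/6J, where Hmox1 lay between -0.23 and 0.020 and Nfe2l2 between -0.12 and 0.067; in the interaction Hmox1 lay between -0.19 and 0.10 and Slc7a11 between -0.081 and 0.014. Slc7a11 between KK sexes was -0.027 after quantile, -0.031 after loess and -0.024 with the covariate, and with weights -0.021 between C57BL/6J sexes and 0.059 in the interaction. The Hmox1 interaction was 0.046, 0.032 and 0.106 after quantile, loess and the covariate. With the covariate Hmox1 between KK sexes was 0.014 and Nfe2l2 between C57BL/6J sexes 0.013, and Nqo1 over both sexes was 0.028 with weights. The cause of these changes was not tested. Cbr3 and Slc7a11, near the level of an absent transcript, were removed by the filter on dim probe sets, and a change in them could not be measured here.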
